A study of Mus musculus with 24 samples.

Results

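Carboxylated single-walled carbon nanotubes (COOH SWCNT) were set against bacterial lipopolysaccharide (LPS). The 3 COOH SWCNT libraries were compared with the 3 LPS libraries of a series of 24, chosen by their labels. The 3 libraries labelled Control gave the reference level. All were poly-A RNA of SIM-A9 cells, an established mouse microglial line, and no genotype or allele is given beyond the line. In every group cells were moved to serum-free medium (270 uL) for 2 h, 30 uL of a 10x sample was then added, and RNA was taken 2 h later from adherent cells. The labels give no nanotube or LPS dose, so the comparison is between these preparations as applied. LPS and COOH SWCNT were among 7 treatments that also included nanotubes labelled (GT)6 SWCNT, whose 3 libraries are used for some values below, and nothing in the labels says whether the 3 libraries of a group came from separate cultures, so p-values measure only the spread between these libraries, which may be technical.

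Microglia are the resident macrophages of the brain. They sense LPS through Toll-like receptor TLR4 with its co-receptors CD14 and MD-2, and the receptor signals through MYD88 and TICAM1 to the transcription factors NF-kB, AP-1 and IRF3. The early targets of that signal include cytokines, chemokines, the prostaglandin synthase Ptgs2, and feedback genes that shorten the response, such as IkB proteins, A20, SOCS proteins, mRNA-decay factors and MAP kinase phosphatases. Carbon nanotubes are particles that macrophages can bind and take up.

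Total counts lay between 19101562 and 22416164 in LPS, between 19950689 and 26070623 in COOH SWCNT and between 18176305 and 23155577 in control. Across genes, the log2 levels of replicate libraries had a Pearson r of 0.992 to 0.994, and every pair differed by more than sampling noise. Mitochondrially encoded genes took 1.47% to 1.59% of counts in LPS, 1.62% to 1.69% in COOH SWCNT and 1.54% to 1.72% in control. All 13 microglia and macrophage markers were tested, and their summed level lay between 2833 and 3112 CPM (counts scaled to library size with TMM factors) over the 9 libraries. The line did not hold every microglial marker: Siglech had no count in the 9 libraries, Sall1 was counted in 1 of them, and P2ry12 lay between 1.54 and 3.26 CPM. Markers of other cells summed to at most 1.002 CPM for neurons (7 genes, 3 of them at 0 in all 9 libraries), 0.706 for astrocytes (6 genes), 5.80 for oligodendrocytes (7 genes), 0.435 for fibroblasts and pericytes (6 genes) and 0.385 for lymphocytes (6 genes). The 5 endothelial markers summed to between 90.8 and 138 CPM, nearly all from Kdr, while Cldn5 was at 0 in all 9 libraries. Library index numbers run in blocks of 3 per group, so library order and group cannot be told apart.

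After 2 h, 17 of 20 tested secreted cytokine genes and 14 of 18 tested chemokine genes were lower in cells given COOH SWCNT than in cells given LPS, beside 19.7% lower over all genes tested. The largest differences were in cytokines, the chemokine Cxcl2, the nuclear IkB protein Nfkbiz and inducible nitric oxide synthase Nos2, with the LPS level 93.5-fold that of COOH SWCNT for Il6, 36.9-fold for Nfkbiz and Nos2 and 32.6-fold for Cxcl2. A smaller set of genes was higher in COOH SWCNT by at least 1 log2 unit. Among the named genes of at least 5 CPM it was led by the receptors Gpr183 and Cnr2 and the ERK phosphatase Dusp6. LPS lowered all 3 of these from control. Messenger RNAs of ribosomal proteins were lower in COOH SWCNT than in LPS as a group, by less than 1 log2 unit each. These are bulk samples, in which fewer cells of a kind and less RNA per cell cannot be told apart.

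Of 13116 genes tested with edgeR's quasi-likelihood test, 4954 (37.8%) passed 0.05 after Benjamini-Hochberg adjustment and are named called genes, 2374 (18.1%) higher and 2580 (19.7%) lower in COOH SWCNT than in LPS. Log2 fold changes here are COOH SWCNT minus LPS unless another pair is named. Most calls were small: 3695 of the 4954 had an absolute log2 fold change under 0.5, and the median over all genes tested was 0.01. At 1 log2 unit or more there were 450 called genes (3.43% of those tested), 173 higher and 277 lower. At 3 log2 units or more there were 4 higher and 46 lower, and at 4 or more there were 0 higher and 22 lower. Of the 277 genes lower by at least 1 log2 unit, 191 had a control mean below both treatments, 85 had it between them and 1 had it above both. Together the 277 genes took 2.98% to 3.16% of counts in LPS, 0.919% to 0.942% in COOH SWCNT and 0.668% to 0.682% in control. Of the 173 genes higher by at least 1 log2 unit, 94 had a control mean between the treatments, 69 had it above both and 10 had it below both. The split between higher and lower calls depended on the scaling. With TMM factors 47.9% of calls were higher, and with upper-quartile factors 62.5% were (3307 of 5287), with the median over all genes at 0.06.

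**Figure D1:**
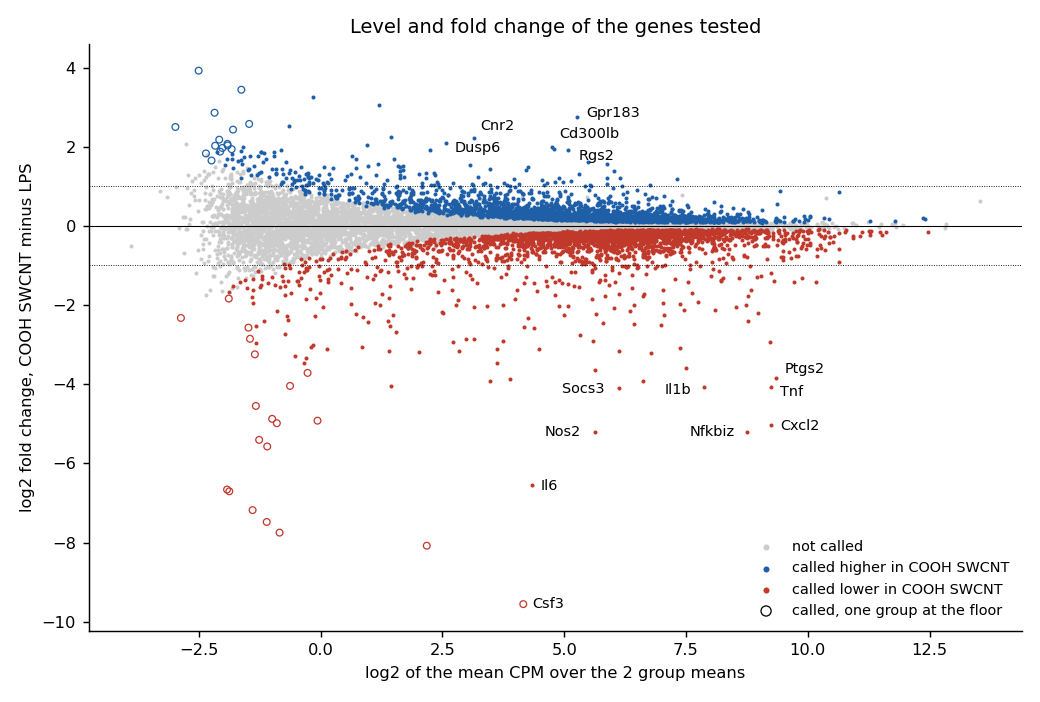
Log2 fold change of COOH SWCNT against LPS (vertical axis, log2 units) against the log2 of the mean level in CPM (horizontal axis) for the genes tested, with dotted lines at a change of 1 in either direction and open circles where a called gene was at the floor of 3 counts in 1 group. The lower side reaches -9.55 and the upper side 3.92, and 277 called genes lie at or below the lower line against 173 at or above the upper.

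Csf3, which encodes the granulocyte growth factor G-CSF (chromosome 11, 98701263 to 98703629 on GRCm38), had the lowest value of all. Its level was 32.6, 37.7 and 36.7 CPM in the LPS libraries, 0.0759, 0 and 0.0405 CPM in COOH SWCNT and 0.0549, 0 and 0.0534 CPM in control. No COOH SWCNT library held more than 3 counts, so Csf3 is given as at least 238-fold higher in LPS, against that floor of 3 counts per library (adjusted p = 5.00e-27).

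Il6, the interleukin that drives acute-phase responses (chromosome 5, 30013114 to 30019981), was at 39.5, 37.5 and 43.1 CPM in LPS, at 0.303, 0.351 and 0.608 CPM in COOH SWCNT and at 0.220, 0.170 and 0.214 CPM in control. The COOH SWCNT libraries lay far below the LPS libraries, 93.5-fold by the fitted change (log2 fold change -6.55, SE 0.16, adjusted p = 1.80e-28). All 3 lay above the 3 control libraries, but the difference from control did not pass (1.07, SE 0.44, adjusted p = 0.0854). Cxcl2, a neutrophil chemokine (chromosome 5, 90903871 to 90905938), was at 1079, 1222 and 1223 CPM in LPS, 35.7, 36.9 and 35.5 CPM in COOH SWCNT and 15.2, 11.3 and 12.5 CPM in control. The 3 groups did not overlap, and COOH SWCNT lay between the other groups (log2 fold change against LPS -5.03, SE 0.07, adjusted p = 2.80e-36; against control 1.48, SE 0.09, adjusted p = 3.32e-15). The contrasts with LPS and with control share the COOH SWCNT libraries, so they are set side by side and not compared further.

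The promoters of Il6 and Cxcl2 are shown because, of the 8 of the 12 lowest genes that have a RefSeq window, they are the lowest whose window holds a searched motif. Each is the 250 bases before the RefSeq start on GRCm38.p6, read 5′ to 3′ on the gene's strand, with matches in capitals. The Il6 window is chr5:30012864-30013113 on the plus strand, with a kB consensus match at -44 to -35 and an AP-1 match (TGACTCA, here on the opposite strand) at the far end of the window. The Cxcl2 window is chr5:90903649-90903898 on the plus strand, with 2 overlapping kB matches at -97 to -88 and -96 to -87.
Il6: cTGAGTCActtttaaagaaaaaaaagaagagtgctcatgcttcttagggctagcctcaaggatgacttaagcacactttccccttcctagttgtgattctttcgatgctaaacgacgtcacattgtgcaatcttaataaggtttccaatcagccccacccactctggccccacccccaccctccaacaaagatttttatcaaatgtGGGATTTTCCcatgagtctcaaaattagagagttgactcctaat
Cxcl2: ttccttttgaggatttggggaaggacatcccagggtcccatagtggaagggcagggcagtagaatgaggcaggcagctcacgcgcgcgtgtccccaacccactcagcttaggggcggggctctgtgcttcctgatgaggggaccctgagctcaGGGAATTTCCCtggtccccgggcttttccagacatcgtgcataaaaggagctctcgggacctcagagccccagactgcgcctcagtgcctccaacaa
Motifs were counted by gene, on both strands of any of its windows, from 250 bases before to 50 bases after the start. Of 9388 tested genes with a window, 581 (6.19%) held the kB consensus. It was held by 33 of 186 genes (17.7%) lower in COOH SWCNT by at least 1 log2 unit. Of genes higher by at least 1, it was held by 1 of 111 (0.901%). The core of the interferon-stimulated response element was found in 3.89%, 11.3% and 1.80% of the same sets of genes. AP-1 (TGACTCA) was in 4.63%, 10.2% and 10.8%, and the EGR motif GCGNGGGCG in 12.2%, 9.68% and 13.5%. CRE (TGACGTCA) was in 3.73%, 3.23% and 2.70%, and the CArG box in 1.42%, 2.69% and 1.80%. These are matches of letters, given as a description with no test.

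Nfkbiz encodes IkB-zeta, a nuclear protein that NF-kB induces and that is needed for part of its later targets (chromosome 16, 55811375 to 55838899). Its level was 842, 838 and 853 CPM in LPS, 22.4, 22.6 and 23.5 CPM in COOH SWCNT and 14.5, 16.98 and 16.2 CPM in control, and the LPS libraries stood far above the others (log2 fold change -5.21, SE 0.05, adjusted p = 1.35e-41). The COOH SWCNT libraries were all above control (0.52, SE 0.06, adjusted p = 8.05e-08), by a step that was small beside the gap to LPS. Nos2, inducible nitric oxide synthase (chromosome 11, 78920787 to 78960254), was at 83.8, 98.2 and 108 CPM in LPS, at 3.03, 2.10 and 2.59 CPM in COOH SWCNT and at 2.03, 1.36 and 1.76 CPM in control. LPS stood apart again (log2 fold change -5.21, SE 0.14, adjusted p = 5.97e-27), while COOH SWCNT against control did not pass (0.63, SE 0.26, adjusted p = 0.0903).

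Tnf, the cytokine that gives the TNF family its name (chromosome 17, 35199381 to 35202007), was at 1082, 1174 and 1176 CPM in LPS, at 65.0, 72.0 and 67.8 CPM in COOH SWCNT and at 37.0, 35.1 and 34.6 CPM in control. Il1b, the interleukin released after caspase cleavage (chromosome 2, 129364570 to 129371139), was at 407, 441 and 482 CPM, at 25.9, 29.01 and 24.4 CPM and at 9.18, 9.96 and 8.22 CPM in the same order. Ptgs2, which makes prostaglandin H (chromosome 1, 150100031 to 150108227), was at 1189.8, 1192 and 1246 CPM in LPS, 85.7, 89.6 and 77.8 CPM in COOH SWCNT and 42.97, 40.2 and 38.4 CPM in control. In all 3 genes the groups did not overlap and came in the order LPS, COOH SWCNT, control. The fitted differences between COOH SWCNT and LPS were -4.07 (SE 0.05, adjusted p = 9.88e-39) for Tnf, -4.07 (SE 0.06, adjusted p = 7.49e-35) for Il1b and -3.84 (SE 0.05, adjusted p = 9.11e-37) for Ptgs2. Counted in CPM above the control mean, the rise in COOH SWCNT was 2.95% of the rise in LPS for Tnf, 3.995% for Il1b, 3.75% for Ptgs2, 1.98% for Cxcl2 and 0.838% for Nfkbiz. An antisense gene, Il1bos, overlaps Il1b, and strand use in counting is not given in the sources used here, so the share of antisense reads in the Il1b value is unknown.

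The other members of the 12 lowest were Socs3 (-4.09), a brake on JAK-STAT signalling, Cxcl10 (-3.92), an interferon-inducible chemokine, Cd69 (-3.91), an early activation antigen, and Prdm1 (-3.86), the transcriptional repressor BLIMP1. Prdm1 was at 26.5, 29.6 and 26.9 CPM in LPS and at 2.05, 2.20 and 1.4999 CPM in COOH SWCNT, with control at 0.495, 1.45 and 0.694 CPM. The 12 were picked only from genes without overlap between the COOH SWCNT and LPS libraries, which was so for 44.1% of all genes tested.

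**Figure D2:**
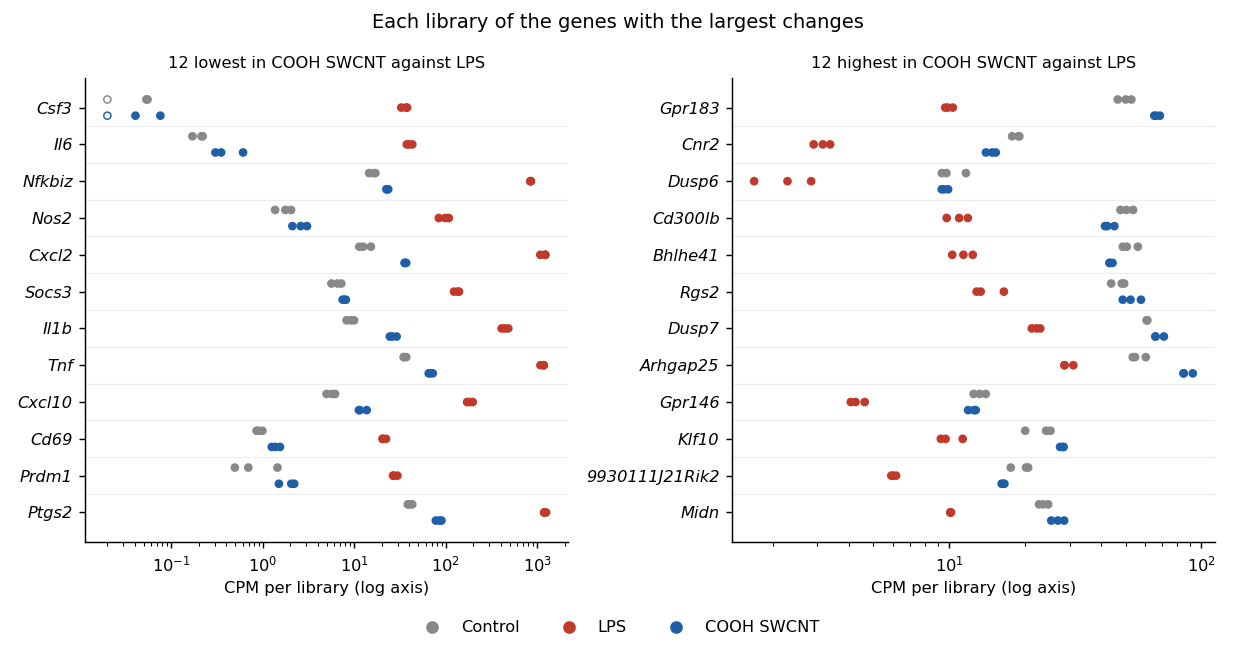
Level of each library in CPM (horizontal log axis) for the 12 lowest and the 12 highest genes of COOH SWCNT against LPS, with 1 point per library of control, LPS and COOH SWCNT and open points at the left edge for a level of 0. In the lowest genes the LPS points stand apart to the right (Nfkbiz 838 to 853 CPM against 22.4 to 23.5), and in the highest they stand apart to the left (Gpr183 9.63 to 10.3 CPM against 65.0 to 68.4). Only genes without overlap between the COOH SWCNT and LPS libraries were picked.

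Secreted cytokines were the most shifted list. Of its 22 genes 20 were tested, 17 were called lower in COOH SWCNT than in LPS, none higher, and 3 did not pass, against 37.8% called over all genes. With a mean of at least 50 counts required, 11 were called lower. The median log2 fold change of the tested members was -2.93, or -2.68 with genes at the floor set to their bound, beside 0.01 over all genes. Csf2, the granulocyte-macrophage growth factor, was at 7.99, 9.38 and 9.72 CPM in LPS, and no COOH SWCNT library held more than 3 counts, so it was at least 60.1-fold higher in LPS (adjusted p = 4.33e-17). On the same floor Il12b, a subunit of the T helper cytokines interleukin 12 and 23, was at least 7.42-fold higher in LPS (adjusted p = 6.19e-07), from 0.435, 1.42 and 1.496 CPM. Ifnb1, the type I interferon gene, was at 0.543, 0.439 and 0.655 CPM in LPS with no count in COOH SWCNT, at least 3.63-fold higher in LPS (adjusted p = 2.11e-05). The list was not at control level throughout in COOH SWCNT: 9 of its 20 tested members were called higher than control (background 9.39%) and none lower, while LPS against control called 18 higher (background 13.8%).

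The cytokine genes differed in how close COOH SWCNT came to LPS. Il1rn, the natural antagonist of the interleukin 1 receptor, was at 1421, 1432 and 1545 CPM in LPS, at 1259, 1346 and 1326 CPM in COOH SWCNT and at 672, 539 and 529 CPM in control. Both treatments were above control (COOH SWCNT 1.18, SE 0.08, adjusted p = 1.75e-14, and LPS 1.34, SE 0.08, adjusted p = 4.20e-17), and their difference did not pass (-0.16, SE 0.08, adjusted p = 0.0888), although the library ranges did not overlap. Csf1, the growth factor that microglia depend on, is given here after its values were seen: it was at 1321, 1313 and 1395 CPM in LPS, 552, 541 and 528 CPM in COOH SWCNT and 330.5, 351 and 312 CPM in control (log2 fold change -1.31, SE 0.04, adjusted p = 8.88e-25). Its rise over control in COOH SWCNT was 20.7% of that in LPS. Il1a, also chosen after its values were seen, lay at 349, 321 and 333 CPM in LPS, 25.7, 29.2 and 29.1 CPM in COOH SWCNT and 12.1, 13.2 and 9.99 CPM in control (-3.58, SE 0.07, adjusted p = 1.14e-32), with a rise 5.05% of that in LPS. Tgfb1, an anti-inflammatory cytokine, was at 263, 285 and 298 CPM in LPS and 296, 290.3 and 268 CPM in COOH SWCNT, and the groups overlapped (0.01, SE 0.04, adjusted p = 0.852).

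Chemokines followed with 14 of 18 tested members lower, 3 higher and 1 not called (median -1.23, background 18.1% higher, 19.7% lower). The higher members were Ccl6, Cxcl14 and Ccl24, by 0.19, 0.29 and 0.46. Ccl17 and Ccl20, attractants of T cells, had no COOH SWCNT library above 3 counts and were at least 3.52-fold (adjusted p = 5.41e-05) and at least 6.14-fold (adjusted p = 3.46e-06) higher in LPS. Cxcl10 was at 171, 183 and 197 CPM in LPS, 11.5, 11.2 and 13.7 CPM in COOH SWCNT and 5.66, 6.17 and 4.97 CPM in control (-3.92, SE 0.07, adjusted p = 3.15e-32), and it overlaps Art3 on the other strand. The monocyte and macrophage attractants Ccl2 and Ccl3, chosen after their values were seen, kept more of the response. Ccl2 was at 877, 947 and 942 CPM in LPS, 322, 339 and 389 CPM in COOH SWCNT and 219, 198 and 194 CPM in control (-1.40, SE 0.06, adjusted p = 8.86e-20). Ccl3 was at 1472, 1766 and 1794 CPM, 606, 649 and 616 CPM and 358, 332 and 310.2 CPM in the same order (-1.43, SE 0.07, adjusted p = 4.99e-20). For both, the COOH SWCNT libraries lay between control and LPS without overlap, and the rise over control was 20.4% and 21.6% of that in LPS. Against control, COOH SWCNT called 8 chemokines higher and 1 lower (background 9.39% and 10.6%), and LPS called 14 higher and 2 lower (background 13.8% and 14.5%).

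Among NF-kB subunits, IkB proteins and IKK, 12 of 15 members were lower and none higher (median -0.72, background 18.1% higher, 19.7% lower). With upper-quartile factors 1 member passed as higher. After Nfkbiz the largest difference was in Nfkbia, IkB-alpha, the inhibitor that NF-kB induces to end its own signal. Nfkbia was at 682, 751 and 759.8 CPM in LPS, 140.3, 143 and 132 CPM in COOH SWCNT and 110.0, 115 and 113 CPM in control (-2.40, SE 0.05, adjusted p = 9.83e-32). Rel, the c-Rel subunit, was at 323, 291 and 297 CPM in LPS and 96.8, 92.6 and 89.4 CPM in COOH SWCNT, against 59.3, 67.7 and 67.8 CPM in control (-1.71, SE 0.05, adjusted p = 2.86e-26). Ikbke, a kinase of the interferon branch, differed by -1.61 (SE 0.06, adjusted p = 1.41e-22). The kinase subunit genes Ikbkb, whose libraries overlapped, and Ikbkg, whose libraries did not, both failed to pass (-0.11, adjusted p = 0.105, and 0.11, adjusted p = 0.0796).

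Feedback genes of the same pathway were lower in COOH SWCNT too. In the A20, mRNA-decay and SOCS list 11 of 16 tested members were lower and 2 higher (median -1.10, background 18.1% higher, 19.7% lower). Socs3 was at 123, 135 and 139.5 CPM in LPS, 8.08, 7.82 and 7.46 CPM in COOH SWCNT and 6.54, 5.62 and 7.21 CPM in control, a difference of -4.09 (SE 0.08, adjusted p = 7.54e-32). Zc3h12a, the mRNA-cleaving enzyme Regnase-1, was at 88.5, 89.2 and 98.6 CPM in LPS and 6.90, 7.51 and 7.95 CPM in COOH SWCNT (-3.63, SE 0.08, adjusted p = 3.15e-30). Tnfaip3, the ubiquitin editor A20, was at 219.6, 209 and 217 CPM in LPS, 39.98, 39.2 and 35.02 CPM in COOH SWCNT and 23.7, 23.6 and 23.3 CPM in control (-2.50, SE 0.05, adjusted p = 5.45e-31). For these 3 genes the LPS libraries were separate from all others. The higher members were Zfp36l1 (0.23) and Zfp36l2 (0.70), relatives of the mRNA-decay factor tristetraprolin, whose own gene Zfp36 was lower (-1.10). The count of 2 higher fell to 1 without COOH SWCNT replicate 1, COOH SWCNT replicate 2 or LPS replicate 1.

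Of 25 tested Toll-like receptors, co-receptors and adaptors, 8 were lower, 5 higher and 12 not called (median -0.03), or 52.0% called beside 37.8% over all genes. Ripk2, a kinase of NOD signalling, was at 58.1, 58.6 and 59.1 CPM in LPS and 20.1, 20.6 and 19.7 CPM in COOH SWCNT (-1.54, SE 0.06, adjusted p = 2.65e-22). Tlr2, the lipoprotein receptor, was at 773, 720.0 and 726 CPM in LPS, 319, 298 and 311 CPM in COOH SWCNT and 276, 280.4 and 275 CPM in control (-1.26, SE 0.04, adjusted p = 2.40e-24). The LPS co-receptor gene Cd14 was at 825, 835 and 866 CPM, 349, 384 and 378 CPM and 308, 289 and 288 CPM in the same order (-1.18, SE 0.04, adjusted p = 6.86e-23). These 3 were inducible members, with LPS above both other groups. Tlr5, the flagellin receptor, went the other way, at 5.60, 3.47 and 3.79 CPM in LPS and 10.1, 8.52 and 8.07 CPM in COOH SWCNT (1.07, SE 0.14, adjusted p = 6.14e-08). Tlr4, the LPS receptor itself, chosen after its values were seen, was at 25.98, 21.1 and 21.4 CPM in LPS, 33.7, 34.7 and 32.1 CPM in COOH SWCNT and 42.6, 40.6 and 41.9 CPM in control. It was higher in COOH SWCNT than in LPS (0.55, SE 0.07, adjusted p = 2.60e-08) and lower than control in both (COOH SWCNT -0.32, adjusted p = 3.39e-04, and LPS -0.87, adjusted p = 3.06e-13).

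Among costimulatory, adhesion and TNF receptor molecules, 12 of 15 tested members were lower and 2 higher (median -1.04, background 18.1% higher, 19.7% lower). Cd69 was at 20.4, 22.2 and 20.4 CPM in LPS and 1.37, 1.25 and 1.54 CPM in COOH SWCNT (-3.91, SE 0.15, adjusted p = 3.28e-22). Cd40, the receptor for T cell help, was at 89.7, 95.1 and 96.5 CPM in LPS, 16.1, 16.5 and 18.9 CPM in COOH SWCNT and 13.7, 13.4 and 13.5 CPM in control (-2.45, SE 0.08, adjusted p = 3.10e-25). Vcam1 (-3.11), a vascular adhesion molecule, and Icosl (-2.23), the ICOS ligand, differed in the same direction, and the leukocyte integrin chain Itgb2 did not pass (-0.02, adjusted p = 0.711). The higher members were Cd86 (0.18) and Tnfrsf1a (0.38).

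In the prostaglandin list 5 of 12 tested members were lower and 3 higher (median -0.20, background 18.1% higher, 19.7% lower). The lower members after Ptgs2 were led by Ptges, the inducible prostaglandin E synthase, at 1.79, 2.10 and 1.96 CPM in LPS and 0.531, 1.15 and 0.527 CPM in COOH SWCNT (-1.45, SE 0.29, adjusted p = 1.17e-04). The prostacyclin receptor gene Ptgir was higher in COOH SWCNT, at 90.9, 90.8 and 88.6 CPM against 71.8, 74.8 and 69.6 CPM in LPS, with control at 94.8, 95.5 and 91.0 CPM (0.32, SE 0.04, adjusted p = 2.26e-08). Pla2g4a, which releases arachidonic acid, did not pass (-0.04, adjusted p = 0.514).

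Of 24 tested immunometabolic and glycolytic enzymes 7 were lower, 5 higher and 12 not called (median -0.08, background 18.1% higher, 19.7% lower). Acod1, which makes itaconate, was at 999.7, 1058 and 1108 CPM in LPS, 137, 139 and 138 CPM in COOH SWCNT and 97.5, 82.4 and 81.4 CPM in control (-2.94, SE 0.08, adjusted p = 6.31e-27). Sod2, mitochondrial superoxide dismutase, was at 277, 301 and 312 CPM in LPS and 140.1, 155 and 145 CPM in COOH SWCNT (-1.02, SE 0.05, adjusted p = 7.71e-20). The glycolytic enzymes Pkm and Eno1 did not pass (-0.03, adjusted p = 0.518, and 0.06, adjusted p = 0.174). The glucose transporter gene Slc2a1, chosen after its values were seen, was at 325, 336 and 344 CPM in LPS, 309, 329 and 322 CPM in COOH SWCNT and 208, 201 and 205 CPM in control, so both treatments lay above control and overlapped each other (-0.07, SE 0.04, adjusted p = 0.176). The list's counts depended on the settings, with 8 higher under upper-quartile factors, 2 higher and 11 lower in the fit without length and GC trends, 3 higher without COOH SWCNT replicate 2 and 2 higher without LPS replicate 1.

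BCL2 family genes and inhibitors of apoptosis were lower in 11 of 20 cases and higher in 3 (median -0.24, background 18.1% higher, 19.7% lower). The largest differences were in the BCL2A1 genes, near-identical copies whose reads may be split between them. Bcl2a1d was at 35.2, 41.7 and 42.6 CPM in LPS and 4.17, 4.61 and 5.11 CPM in COOH SWCNT (-3.11, SE 0.12, adjusted p = 2.73e-22), and Bcl2a1a was at least 12.3-fold higher in LPS against a COOH SWCNT group at the floor (adjusted p = 1.79e-09). Cflar, which blocks caspase-8, was at 278, 259.6 and 269 CPM in LPS, 102, 101 and 101 CPM in COOH SWCNT and 80.2, 74.0 and 77.5 CPM in control (-1.41, SE 0.04, adjusted p = 2.26e-27). Bid and Xiap did not pass (-0.01, adjusted p = 0.861, and -0.07, adjusted p = 0.201).

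Interferon regulatory factors and interferon-stimulated genes were lower in 12, higher in 5 and not called in 11 of 28 tested members (median -0.17). The background over all genes was 18.1% higher and 19.7% lower. Irf1, an interferon regulatory factor that NF-kB also induces, was at 131, 134 and 148 CPM in LPS, 34.6, 33.7 and 35.4 CPM in COOH SWCNT and 28.5, 31.96 and 31.7 CPM in control (-1.99, SE 0.05, adjusted p = 1.93e-27). Isg15, a ubiquitin-like protein, was at 8.97, 11.0 and 12.8 CPM in LPS and 2.73, 2.91 and 2.55 CPM in COOH SWCNT (-2.01, SE 0.15, adjusted p = 1.24e-13). The GTPase genes Gbp5 (-3.33) and Gbp2 (-2.53) differed from low levels, with at most 1.78 and 5.56 CPM in any LPS library. Oasl1 and Bst2 had overlapping libraries and did not pass (-0.03, adjusted p = 0.765, and -0.12, adjusted p = 0.226).

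The integrated stress response list had 6 of 19 tested members lower, 4 higher and 9 not called (median 0.02, background 18.1% higher, 19.7% lower). Gdf15, a stress-induced cytokine, was at 70.4, 90.7 and 94.1 CPM in LPS, 11.2, 10.9 and 11.9 CPM in COOH SWCNT and 4.23, 3.36 and 4.38 CPM in control (-2.90, SE 0.10, adjusted p = 2.89e-23). Slc7a11, the cystine importer, was at 146, 119 and 136 CPM in LPS and 30.3, 29.9 and 29.9 CPM in COOH SWCNT, with control at 30.2, 27.4 and 26.4 CPM (-2.16, SE 0.07, adjusted p = 1.12e-25). Ppp1r15a (-1.11), which restarts translation after stress, and Nupr1 (-0.97) were lower as well. The serine synthesis genes Phgdh and Psat1 did not pass (-0.03, adjusted p = 0.497, and 0.02, adjusted p = 0.712). With upper-quartile factors 7 members passed as higher.

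Among the genes higher in COOH SWCNT than in LPS, most of those changed by at least 1 log2 unit had a control mean between the treatments or above both. Gpr183, a receptor for oxysterols that guides immune cells (chromosome 14, 121952551 to 121965195), led the named genes of at least 5 CPM among them. Its level was 10.3, 9.86 and 9.63 CPM in LPS, 68.4, 65.0 and 66.1 CPM in COOH SWCNT and 52.8, 46.6 and 50.1 CPM in control, so the LPS libraries were below and the COOH SWCNT libraries above control (6.70-fold between treatments, log2 fold change 2.74, SE 0.06, adjusted p = 3.22e-29). Cnr2, the cannabinoid receptor of immune cells (chromosome 4, 135895394 to 135920207), was at 3.15, 3.37 and 2.90 CPM in LPS, 15.3, 13.98 and 14.8 CPM in COOH SWCNT and 17.7, 18.8 and 19.0 CPM in control (2.23, SE 0.09, adjusted p = 2.59e-21). Dusp6, a phosphatase that inactivates ERK (chromosome 10, 99263231 to 99267489), was at 2.28, 2.83 and 1.68 CPM in LPS, 9.33, 9.52 and 9.89 CPM in COOH SWCNT and 9.34, 9.75 and 11.6 CPM in control (2.08, SE 0.14, adjusted p = 3.95e-15). For Dusp6 the COOH SWCNT and control ranges overlapped, and their difference did not pass (-0.09, adjusted p = 0.594).

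Further genes of the 12 highest showed the same arrangement. Cd300lb, an activating receptor of myeloid cells, was at 11.8, 9.77 and 10.9 CPM in LPS, 41.5, 42.3 and 45.2 CPM in COOH SWCNT and 53.6, 47.7 and 50.4 CPM in control (1.99, SE 0.09, adjusted p = 6.79e-21). Bhlhe41, a transcriptional repressor of the circadian system, was at 10.3, 11.4 and 12.4 CPM, 44.4, 43.2 and 43.3 CPM and 55.9, 50.6 and 48.8 CPM in the same order (1.94, SE 0.06, adjusted p = 2.01e-24), and it overlaps an antisense gene. Rgs2, which speeds G protein shut-off, was at 16.5, 12.8 and 13.3 CPM in LPS, 52.3, 48.7 and 57.6 CPM in COOH SWCNT and 48.3, 49.4 and 43.8 CPM in control (1.90, SE 0.07, adjusted p = 8.10e-23). In these 3 genes no LPS library reached the lowest control library, and none reached the lowest COOH SWCNT library by the rule that picked them. The rest of the 12 were Dusp7 (1.61), another ERK phosphatase, Arhgap25 (1.57), a Rac GTPase-activating protein of blood cells, the orphan receptor Gpr146 (1.53), Klf10 (1.48), a TGF-beta-induced repressor, 9930111J21Rik2 (1.44) and the nuclear protein gene Midn (1.41).

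The Rgs2 and Gpr146 promoters are shown as the highest genes of that set with a searched motif inside the 250 bases before the RefSeq start. Both matches are to the EGR motif, marked in capitals. The Rgs2 window is chr1:144004150-144004399 on the minus strand, with the match on the opposite strand at -176 to -168, and the Gpr146 window, 1 of 3 for that gene, is chr5:139380389-139380638 on the plus strand, with the match at -46 to -38.
Rgs2: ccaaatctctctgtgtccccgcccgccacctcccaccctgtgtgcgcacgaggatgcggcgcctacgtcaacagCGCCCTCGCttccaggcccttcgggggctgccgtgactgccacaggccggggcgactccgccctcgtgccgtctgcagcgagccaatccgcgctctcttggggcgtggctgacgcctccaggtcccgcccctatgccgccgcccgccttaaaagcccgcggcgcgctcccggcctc
Gpr146: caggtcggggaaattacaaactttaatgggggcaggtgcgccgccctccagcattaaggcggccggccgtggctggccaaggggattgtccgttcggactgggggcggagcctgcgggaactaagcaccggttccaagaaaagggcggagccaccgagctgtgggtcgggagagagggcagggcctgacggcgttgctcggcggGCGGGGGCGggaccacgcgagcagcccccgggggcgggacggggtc
As given above, the EGR motif was found in 13.5% of the higher genes with a window and in 12.2% of all tested genes with a window.

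Receptors of the G protein-coupled class and RGS proteins went both ways. Of 23 tested members 8 were higher, 11 lower and 4 not called (median -0.31, background 18.1% higher, 19.7% lower). The lower members were led by Ccr7, the lymph node homing receptor, at 0.706, 0.732 and 0.842 CPM in LPS and at 0 in COOH SWCNT, at least 5.06-fold higher in LPS (adjusted p = 4.65e-06). That call was lost with DESeq2's Wald test (adjusted p = 0.417). Adora2a, the adenosine receptor that restrains inflammation, was at 6.79, 7.96 and 7.29 CPM in LPS and 1.02, 0.751 and 0.608 CPM in COOH SWCNT (-3.19, SE 0.24, adjusted p = 7.80e-14). Rgs16 differed by -3.16 (SE 0.27, adjusted p = 6.20e-12), opposite in sign to Rgs2. Higher in COOH SWCNT, after Gpr183, Cnr2 and Rgs2, were Cxcr4 (1.48), Ccr1 (0.94), S1pr1 (0.86), C5ar2 (0.71) and P2ry6 (0.49). Rgs19 and Rgs10 did not pass (0.04, adjusted p = 0.512, and -0.03, adjusted p = 0.756).

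The phosphatases and Sprouty proteins that limit ERK also split. Of 15 tested members 3 were higher, 6 lower and 6 not called (median -0.13, background 18.1% higher, 19.7% lower). Dusp7 was at 21.2, 22.9 and 22.2 CPM in LPS, 71.0, 65.7 and 65.7 CPM in COOH SWCNT and 61.0, 60.8 and 60.7 CPM in control (1.61, SE 0.06, adjusted p = 1.90e-23). Dusp2, a nuclear phosphatase of activated leukocytes, was at 154, 154 and 151 CPM in LPS, 44.1, 47.9 and 47.1 CPM in COOH SWCNT and 27.3, 24.2 and 25.8 CPM in control (-1.72, SE 0.05, adjusted p = 1.94e-26). Dusp1, the phosphatase that inactivates p38 and JNK, was at 22.4, 23.9 and 22.5 CPM in LPS, 23.3, 22.8 and 19.4 CPM in COOH SWCNT and 8.96, 8.43 and 11.2 CPM in control. Dusp1 was higher than control in both treatments (COOH SWCNT 1.20, adjusted p = 3.62e-12, and LPS 1.28, adjusted p = 1.30e-13), and the treatments overlapped (-0.07, SE 0.08, adjusted p = 0.554). Against control, COOH SWCNT called 11 members of this list higher and none lower (background 9.39% higher, 10.6% lower). LPS called 10 higher and 3 lower (background 13.8% higher, 14.5% lower).

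Of 22 tested immediate early and AP-1 factors, COOH SWCNT called 21 higher than control and none lower (background 9.39% higher), and LPS called 18 higher and 2 lower (background 13.8% higher, 14.5% lower). Against LPS 13 were lower, 6 higher and 3 not called (median -0.25, background 18.1% higher, 19.7% lower). Myc was at 29.9, 31.2 and 31.2 CPM in LPS, 6.37, 5.26 and 4.13 CPM in COOH SWCNT and 2.42, 2.34 and 2.35 CPM in control (-2.54, SE 0.12, adjusted p = 1.74e-19). Ier3 (-2.13), a stress-inducible survival gene, Maff (-1.95), a small MAF protein, and Nr4a3 (-1.68), an orphan nuclear receptor, were the next lowest. Jun and Ier2 did not pass (-0.11, adjusted p = 0.0616, and 0.06, adjusted p = 0.449).

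Some members of that list were higher in COOH SWCNT than in LPS, and the following 4 were chosen after their values were seen. Egr3, a zinc-finger factor of the early growth response family (chromosome 14, 70077203 to 70082614), was at 99.5, 97.6 and 83.3 CPM in COOH SWCNT, 35.6, 33.7 and 38.4 CPM in LPS and 29.3, 34.05 and 32.7 CPM in control. It was higher than both (1.38, SE 0.07, adjusted p = 1.88e-18 against LPS, and 1.54, SE 0.07, adjusted p = 3.12e-18 against control), while LPS against control did not pass (0.16, adjusted p = 0.128). Arc, an immediate early gene best known in neurons, was at 23.9, 22.5 and 21.5 CPM in COOH SWCNT, 12.6, 11.3 and 14.5 CPM in LPS and 10.4, 12.04 and 10.9 CPM in control (0.82, SE 0.09, adjusted p = 7.87e-10). Egr2 was at 36.2, 35.8 and 35.1 CPM in COOH SWCNT, 26.2, 27.6 and 29.5 CPM in LPS and 13.8, 15.9 and 14.9 CPM in control (0.36, SE 0.06, adjusted p = 1.83e-05). Fos, a subunit of AP-1, was at 16.5, 15.9 and 16.6 CPM in COOH SWCNT, 7.61, 8.30 and 8.98 CPM in LPS and 13.5, 13.96 and 10.8 CPM in control (0.97, SE 0.10, adjusted p = 2.67e-10). In all 4 genes the COOH SWCNT libraries were the highest of the 9.

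Plau, the urokinase that activates plasminogen (chromosome 14, 20836660 to 20843385), was at 886, 899 and 908 CPM in COOH SWCNT, 494, 486 and 473 CPM in LPS and 513, 479.5 and 449 CPM in control. The LPS and control libraries overlapped, and COOH SWCNT was above both (0.89, SE 0.05, adjusted p = 1.88e-18 against LPS, and 0.90, SE 0.05, adjusted p = 2.69e-17 against control). The urokinase receptor gene Plaur was at 134, 146 and 148 CPM in LPS and 88.3, 94.1 and 98.9 CPM in COOH SWCNT (-0.61, SE 0.06, adjusted p = 3.32e-11). Of 10 tested members of the plasminogen and metalloproteinase list, 2 were higher, 2 lower and 6 not called (median -0.44), a share near the 37.8% called over all genes, and Mmp12 and Mmp9 were among those that did not pass (0.30, adjusted p = 0.0551, and -0.12, adjusted p = 0.417). The count of higher members was 1 without COOH SWCNT replicate 2 or LPS replicate 1.

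**Figure D3:**
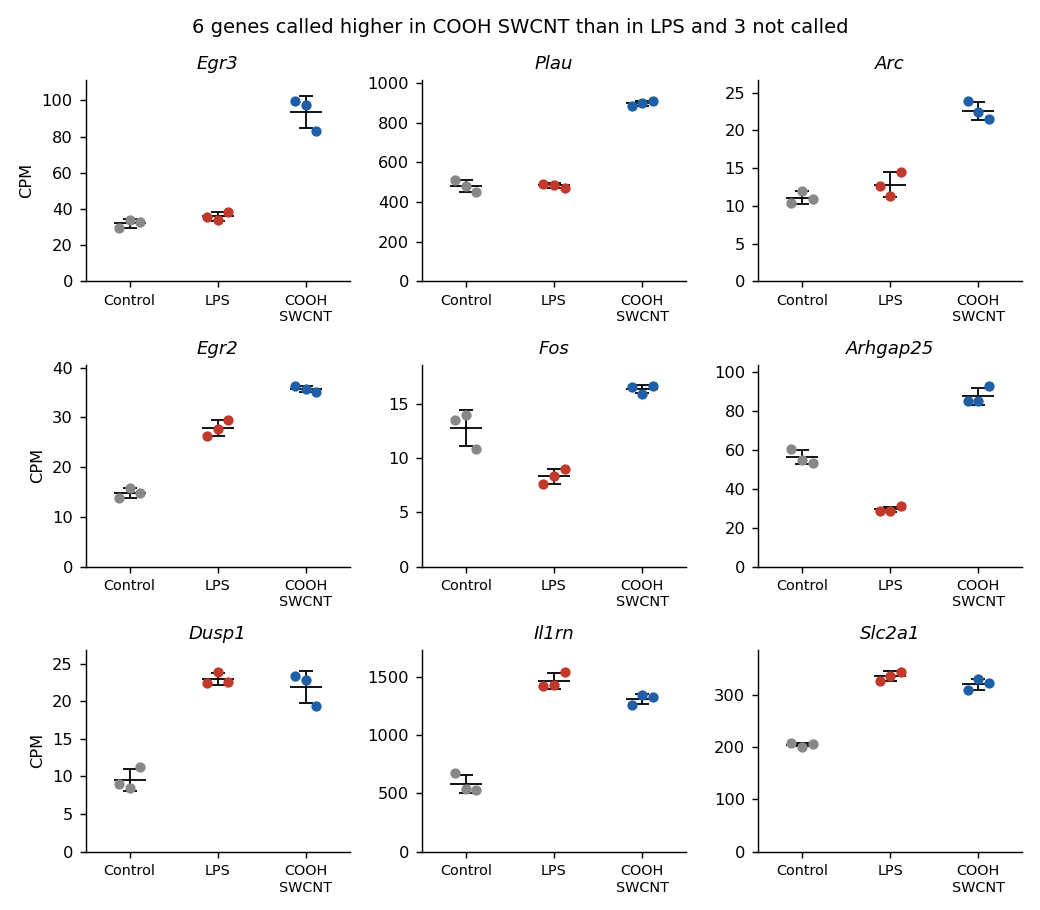
Level in CPM (vertical axes from 0) of 6 genes that were higher in COOH SWCNT than in LPS and 3 whose difference did not pass, with points for the 3 libraries of control, LPS and COOH SWCNT and bars for mean ± SD. Egr3 lies at 83.3 to 99.5 CPM in COOH SWCNT against 33.7 to 38.4 in LPS, Plau at 886 to 908 against 473 to 494, and Dusp1 at 19.4 to 23.3 against 22.4 to 23.9.

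Opposite movement around control was counted among the 4409 called genes with a mean of at least 5 CPM. In 232 genes all COOH SWCNT libraries lay above and all LPS libraries below the control libraries, and 79 of these also passed against control in both treatments. In 229 genes the order was the reverse, and 88 of these passed in both. Arhgap25 was at 85.0, 85.0 and 92.4 CPM in COOH SWCNT, 28.6, 28.6 and 31.04 CPM in LPS and 60.2, 54.6 and 53.4 CPM in control (COOH SWCNT against control 0.64, adjusted p = 1.33e-10, and LPS against control -0.93, adjusted p = 3.33e-14). Fzd7, a WNT receptor gene, was at 59.2, 52.6 and 55.9 CPM in COOH SWCNT, 21.6, 23.2 and 22.9 CPM in LPS and 42.2, 46.4 and 41.4 CPM in control. In the reverse order, Slco4a1, an organic anion transporter gene, was at 86.0, 85.1 and 84.0 CPM in COOH SWCNT, 172, 169 and 172 CPM in LPS and 113, 104 and 101 CPM in control (COOH SWCNT against control -0.32, adjusted p = 1.66e-06, and LPS against control 0.69, adjusted p = 6.91e-16). Tfec, a relative of the lysosomal regulator TFEB, was at 15.7, 16.1 and 17.999 CPM in COOH SWCNT, 44.6, 45.5 and 45.4 CPM in LPS and 20.7, 19.3 and 20.3 CPM in control.

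Genes for cytosolic ribosomal proteins were the most uniform list: 71 of 76 tested were lower in COOH SWCNT than in LPS, none higher and 5 not called, against 19.7% lower over all genes, and the median was -0.33. Library ranges were separate in 61 of the 76, beside 44.1% of all genes. Rps27a, which encodes a ubiquitin fusion, was at 1962, 2146 and 2141 CPM in LPS, 1001, 1122 and 1198 CPM in COOH SWCNT and 1847, 1641 and 1865 CPM in control (-0.91, SE 0.07, adjusted p = 3.79e-14). Rpl22 was at 858, 956 and 983 CPM in LPS, 469, 522 and 539.9 CPM in COOH SWCNT and 879, 784 and 891 CPM in control (-0.87, SE 0.06, adjusted p = 4.89e-15). For both genes COOH SWCNT stood below control as well as LPS. Its paralog Rpl22l1 (-0.91) and Rpl36a (-0.83) followed, and the genes that did not pass were Rps26, Rpl29, Rpl28, Rpl10 and Rps4x. Rpl10 was at 1348, 1391 and 1443 CPM in LPS and 1291, 1414 and 1354 CPM in COOH SWCNT, and the groups overlapped (-0.04, SE 0.04, adjusted p = 0.392).

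The difference in ribosomal protein genes came with COOH SWCNT rather than with LPS when each was set against control. COOH SWCNT called 64 of 76 lower and none higher (background 10.6% lower). LPS called 10 higher, a share near the background of 13.8% higher, and none lower. Against (GT)6 SWCNT 71 were lower in COOH SWCNT (background 11.9%). Taken as a share of all counts, ribosomal protein genes held 5.56% to 6.08% in COOH SWCNT, 6.65% to 7.60% in LPS and 6.96% to 7.38% in control. Some other library measures set COOH SWCNT apart as well. The nuclear RNA Neat1 was at 111 to 144 CPM in COOH SWCNT, 77.0 to 92.2 CPM in LPS and 59.5 to 71.2 CPM in control. Malat1 overlapped between COOH SWCNT (331 to 506 CPM) and LPS (276 to 450 CPM), with control at 294 to 313 CPM. The 10 most abundant genes held 5.98% to 6.19% of counts in COOH SWCNT, 4.77% to 5.55% in LPS and 5.11% to 5.54% in control. The part of these measures in the result was not tested. Short genes as a whole leaned the same way: in the shortest quintile of genes by exon length (55 to 1988 bases once the ribosomal protein genes were left out), 22.2% were lower and 5.77% higher, and in the longest quintile 15.6% were lower and 25.9% higher. The shortest quintile held 42 of the 76 ribosomal protein genes, of which 38 were lower, and in the next quintile 22 of 23 were. With each library's trend with length and GC content removed, the count of lower members was 66, and it was 66 with upper-quartile factors. The part of gene length in this result was not tested further. Leaving out 1 library at a time gave between 64 and 73. Processed pseudogenes copy many of these genes, and how multiply matching reads were counted is not given in the sources used here.

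**Figure D4:**
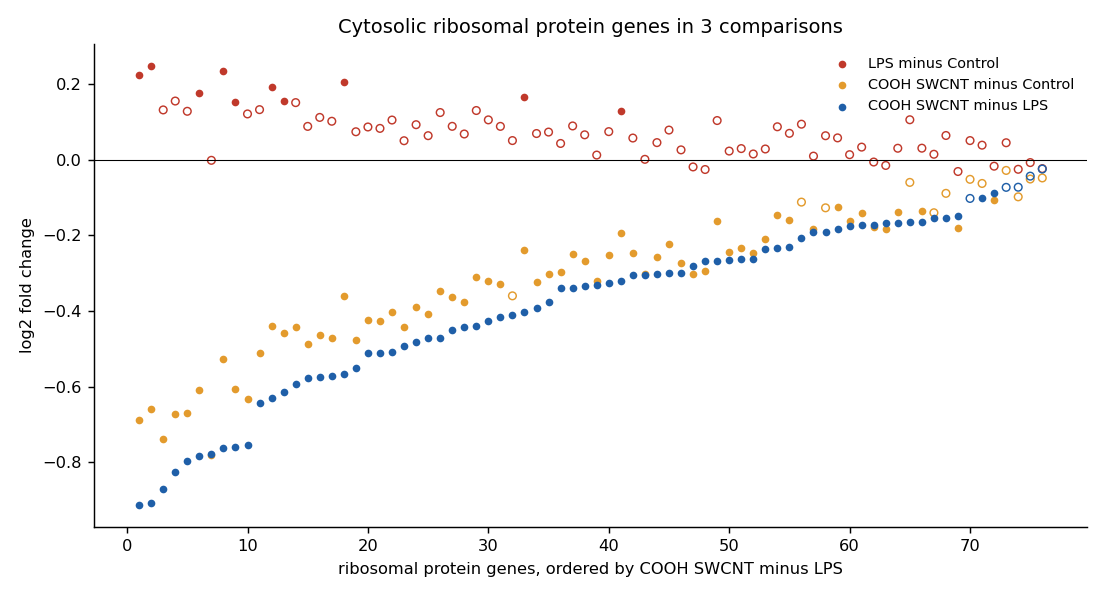
Log2 fold change (vertical axis) of the 76 tested ribosomal protein genes in 3 comparisons, with filled points for called genes and open points for the others. COOH SWCNT against LPS has 71 filled points below 0, COOH SWCNT against control has 64 below 0, and LPS against control has 10 above 0. Over all genes 13.8% were called higher in LPS than in control.

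Of 14 tested markers of microglial identity 3 were lower, 2 higher and 9 not called (median 0.08), a share near the 37.8% called over all genes, and 4 were higher with upper-quartile factors. Spi1, the myeloid master factor PU.1, was at 354, 378 and 388 CPM in LPS and 284, 297 and 291 CPM in COOH SWCNT (-0.36, SE 0.04, adjusted p = 1.28e-08). Csf1r and Trem2 had overlapping libraries and did not pass (-0.02, adjusted p = 0.729, and 0.06, adjusted p = 0.327). The endothelial marker Kdr, named for its level above, was at 102, 90.5 and 92.0 CPM in LPS, 136, 129 and 124 CPM in COOH SWCNT and 128, 137 and 128 CPM in control (0.45, SE 0.05, adjusted p = 1.10e-08).

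Lysosome and autophagy genes were called higher in 13 of 30 cases and lower in 3 (median 0.07), beside 18.1% higher and 19.7% lower over all genes. Rubcnl, a regulator of autophagosome maturation, was the one large difference, at 2.28, 1.76 and 1.87 CPM in LPS, 7.43, 8.12 and 6.89 CPM in COOH SWCNT and 9.18, 10.5 and 10.2 CPM in control (1.92, SE 0.13, adjusted p = 9.67e-15). The other 12 higher members differed by 0.11 to 0.37, among them the cholesterol exporter Npc1 (0.32), and the count of higher members was 7 in the fit without length and GC trends. The count of lower members was 0 with upper-quartile factors and 1 without LPS replicate 2 or 3. The cathepsin genes Ctsb and Ctsd did not pass (0.04, adjusted p = 0.440, and 0.04, adjusted p = 0.435). Scavenger and uptake receptors were higher in 6 of 16 tested members, lower in 4 and not called in 6 (median 0.05), beside 18.1% higher and 19.7% lower over all genes, and 2 were lower when a mean of at least 50 counts was required. Their largest differences were in the oxidised-lipoprotein receptor Olr1 (-1.85, SE 0.46, adjusted p = 0.00134) and in Marco (-1.42, SE 0.35, adjusted p = 0.00115), a receptor known to bind particles, at 1.09, 2.05 and 1.73 CPM in LPS and 0.341, 0.651 and 0.851 CPM in COOH SWCNT. Colec12 and Cd36 did not pass (0.04, adjusted p = 0.366, and -0.01, adjusted p = 0.850).

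KLF, ID and SMAD feedback genes were lower in 8 of 17 tested members and higher in 4 (median -0.02, background 18.1% higher, 19.7% lower). Id3, which blocks basic helix-loop-helix factors, was at 117, 125 and 137 CPM in LPS, 11.9, 16.5 and 14.1 CPM in COOH SWCNT and 6.76, 5.36 and 5.66 CPM in control (-3.17, SE 0.08, adjusted p = 2.09e-27). Klf10 was at 11.3, 9.67 and 9.26 CPM in LPS, 28.3, 27.5 and 28.4 CPM in COOH SWCNT and 20.001, 24.2 and 25.2 CPM in control (1.48, SE 0.09, adjusted p = 7.05e-17). Cholesterol and lipid synthesis genes were lower in 11 of 23, higher in 4 and not called in 8 (background 18.1% higher, 19.7% lower). Differences in the synthesis enzymes were small (Idi1 -0.38, adjusted p = 8.14e-08). The higher count was 2 without COOH SWCNT replicate 2. Abcg1, a cholesterol exporter, was higher in COOH SWCNT, at 34.7, 37.7 and 35.2 CPM against 20.5, 21.3 and 25.1 CPM in LPS (0.68, SE 0.07, adjusted p = 5.68e-10).

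Cell cycle genes were higher in 11 of 25, lower in 5 and not called in 9 (median 0.07), beside 18.1% higher and 19.7% lower over all genes, and 3 were lower with upper-quartile factors. Ccnd1, the cyclin of G1 entry, was at 114, 119.6 and 116 CPM in LPS, 188, 181 and 173 CPM in COOH SWCNT and 184, 189.6 and 182 CPM in control (0.64, SE 0.04, adjusted p = 4.02e-15), and the proliferation markers Mki67 and Top2a did not pass (-0.02, adjusted p = 0.839, and -0.02, adjusted p = 0.777). NRF2 targets, metallothioneins and ferritins were split 5 higher, 5 lower and 6 not called of 16 (background 18.1% higher, 19.7% lower). Their higher count was 2 without COOH SWCNT replicate 2. It was 3 without COOH SWCNT replicate 1, LPS replicate 1 or LPS replicate 2. Osgin1 (1.04), an oxidative stress-induced growth inhibitor, was highest and the autophagy receptor Sqstm1 lowest, at 999, 1014 and 1085 CPM in LPS and 589, 594 and 574 CPM in COOH SWCNT (-0.82, SE 0.04, adjusted p = 9.12e-20). Heat shock genes were lower in 6 of 11 tested members and higher in 1 (background 18.1% higher, 19.7% lower). No member differed by more than 0.41. Of 11 mitochondrially encoded genes, mt-Co3 alone was called (-0.40, adjusted p = 0.00970), while the fit without length and GC trends called 7 as higher and none as lower, so no direction is given.

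**Figure D5:**
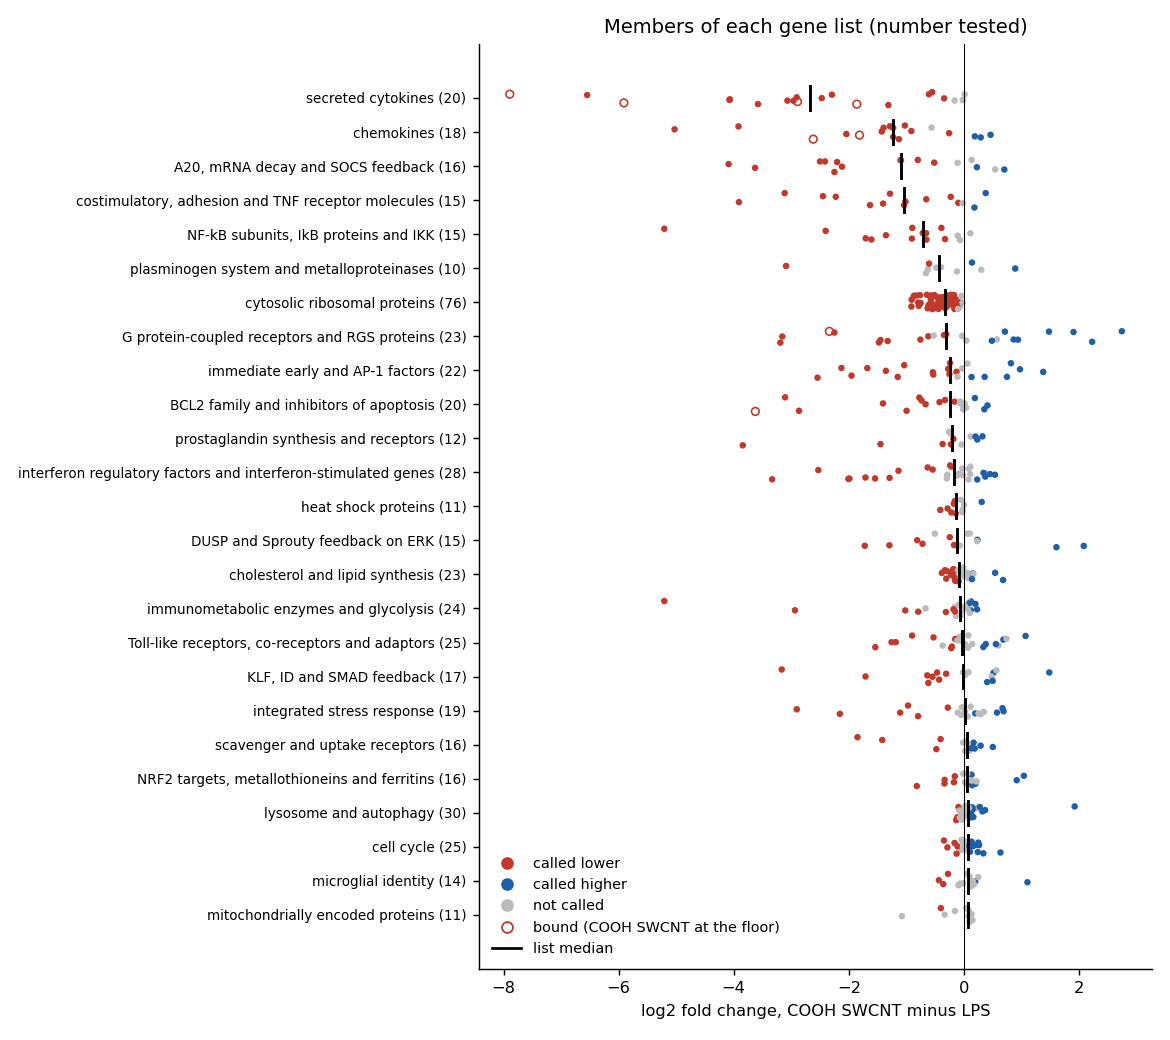
Log2 fold change of COOH SWCNT against LPS (horizontal axis, log2 units) for the tested members of 25 gene lists, 1 point per gene, with each list's median marked and open points for genes given at the bound set by the floor of 3 counts. The secreted cytokines have a median of -2.68 on this scale and the ribosomal protein genes -0.33, while the Toll-like receptor list (-0.03) lies near the median of all genes (0.01).

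The COOH SWCNT libraries were also set against the 3 of (GT)6 SWCNT, the other nanotubes of the series. The group means compared hold no LPS library, but the contrast is from the same fit of all 24 libraries. In it 2801 genes (21.4%) were called, of which 1557 were lower in COOH SWCNT and the rest higher. The doses are not given, so these are differences between preparations as applied. Cxcl2 was lower in COOH SWCNT than in (GT)6 SWCNT by -1.33 (adjusted p = 3.01e-16), Il1b by -0.85 (adjusted p = 1.51e-11) and Tnf by -0.44 (adjusted p = 1.48e-08). Gdf15 (-1.45, adjusted p = 5.78e-12), Ccl3 (-0.84, adjusted p = 6.61e-12), Plau (-0.54, adjusted p = 3.49e-11) and Il1rn (-0.90, adjusted p = 3.70e-11) were also lower, and Il1rn is the one of these whose difference between COOH SWCNT and LPS did not pass. Other named genes were higher in COOH SWCNT than in (GT)6 SWCNT. Among them were Cnr2 (0.47, adjusted p = 8.51e-06), Bhlhe41 (0.47, adjusted p = 5.20e-08), Kdr (0.32, adjusted p = 3.62e-05) and Socs3 (0.36, adjusted p = 0.0165). For Nfkbiz (-0.09, adjusted p = 0.321) and Gpr183 (0.01, adjusted p = 0.928) the difference did not pass. In the secreted cytokine list 7 members were lower in COOH SWCNT than in (GT)6 SWCNT and 1 higher (background 11.9% lower). In the immediate early list 15 were lower and 2 higher.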

How the data were processed

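Poly-A RNA of SIM-A9 cells was sequenced in 24 libraries, 3 for each of 8 groups, and each library's title gave its group and replicate number. The authors deposited raw counts of reads for 54838 versioned mouse gene identifiers, with 1 column per library. Per the submitters' processing notes STAR 2.5.4b and GRCm38.p6 were used. The counting tool, annotation release, strand setting and treatment of multiply matching reads are not given in the sources used here. Every column matched a sample, and 0 columns were left unused. Symbols, positions and exon lengths are from GENCODE M21 (GRCm38): 53947 identifiers matched with their version, 54809 without it, and 29 did not match. Promoter sequences are from RefSeq (GRCm38.p6), matched for 9388 of the tested genes.

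The counts were tested with edgeR 4.0.16 under R 4.3.3. The filterByExpr rule (minimum count 10, minimum total 15) kept 13116 genes, and TMM factors set the library scale. All 24 libraries entered a single quasi-likelihood fit with 1 coefficient for each group, which left 16 residual degrees of freedom and a biological coefficient of variation of 4.12%. Tests were two-sided with Benjamini-Hochberg adjustment over all genes tested in a contrast, and every adjusted p-value is from edgeR's quasi-likelihood test unless DESeq2 is named. An SE was taken as the absolute log2 fold change over the root of its F statistic. A group with no library above 3 counts was taken to be at the floor, and such a fold is given as a bound. Libraries compared held 18176305 to 26070623 counts, and counting error alone limits the genes near the floor.

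The members and gene lists were chosen with earlier results of these data known. Named genes were the 12 highest and 12 lowest called genes with a mean of at least 5 CPM and no overlap between libraries, up to 4 called and 2 uncalled members of each list, the 6 largest opposite movers around control in each direction, and Tnf, Il1b, Cxcl2, Nfkbia and Ptgs2. Others are said to be chosen after their values were seen. Some named members are not reported here. The procedure was tested on simulated data with 13116 genes, of which 50 were changed at each size. It recovered 80% of genes changed 1.5-fold, 88% at 2-fold, 100% at 4-fold and 82% at 0.5-fold, with 10 false calls. Alternatives were the size factors and Wald test of DESeq2 1.42.0, upper-quartile factors, other count filters, a block for replicate number, a fit of only the 6 libraries, removal of length and GC trends, each library left out, a floor of 10 counts and, chosen after seeing the data, a fit of 9 libraries.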

Additional observations from a re-analysis of the deposited data

Results flagged for a closer look

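The 12 genes below had COOH SWCNT and LPS libraries on opposite sides of all 3 control libraries. They were picked as the largest differences between the treatments in each direction, among called genes with a mean of at least 5 CPM. The order held in 232 such genes with COOH SWCNT above control and in 229 with it below. The order and the pass in edgeR's quasi-likelihood test were therefore fixed by the selection. Other named genes, among them Fos and Rps27a, had such an order too. Values are log2 fold changes of COOH SWCNT against LPS. With COOH SWCNT above and LPS below control the picked genes were Gpr183 (2.74, adjusted p = 3.22e-29), Dusp7 (1.61, adjusted p = 1.90e-23), Arhgap25 (1.57, adjusted p = 1.36e-21), Klf10 (1.48, adjusted p = 7.05e-17), Midn (1.41, adjusted p = 1.40e-16) and Fzd7 (1.31, adjusted p = 1.63e-19). Of these, Midn did not pass against control in COOH SWCNT (0.19, adjusted p = 0.0709).

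With COOH SWCNT below and LPS above control the picked genes were Bcl2a1b (-2.87, adjusted p = 6.93e-17), Tfec (-1.44, adjusted p = 1.93e-18), 1810022K09Rik (-1.02, adjusted p = 1.44e-14), Rras2 (-1.02, adjusted p = 4.72e-13), Tent5a (-1.01, adjusted p = 5.23e-14) and Slco4a1 (-1.01, adjusted p = 1.24e-20). COOH SWCNT against control did not pass for Bcl2a1b (-0.55, adjusted p = 0.0593) or Rras2 (-0.20, adjusted p = 0.0956), and LPS against control did not pass for 1810022K09Rik (0.17, adjusted p = 0.0665). Bcl2a1b is a near-identical copy of other genes, and 1810022K09Rik overlaps E2f5 on the other strand.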

How the results depend on the processing

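The count of 450 called genes at 1 log2 unit or more was 236 with a mean of at least 50 counts, a setting that tests fewer genes of low level. Leaving out 1 library at a time gave 4112 to 4786 calls (1852 to 2274 higher, 2235 to 2562 lower) and 418 to 468 at 1 log2 unit or more. The replicate number as a block gave 4929 calls against 4954 without it. Same-numbered libraries correlated at 0.00643, 0.0143 and -0.0403 in their deviations from the group means, none over 0.1, so the numbers were not taken to pair the samples. Upper-quartile factors gave 5287 calls, 62.5% of them higher, and with length and GC trends removed there were 4735 (1932 higher, 2803 lower), which held 79.3% of the main calls. The other settings gave between 4445 calls (6 libraries only) and 4944 (DESeq2 size factors), and the fit of 9 libraries, chosen after seeing the data, gave 4680. A floor of 10 counts put COOH SWCNT at the floor in 62 called genes and LPS in 65, against 20 and 15 with 3 counts. No named gene that was called changed sign in any of these settings, while some that were not called did, among them Itgb2 (-0.02 to 0.03 with upper-quartile factors) and Rpl10 (-0.04 to 0.05 with length and GC trends removed). Of the named genes' values 2525 kept their side of the threshold, 17 lost the call (in Mertk, Timp2, Tfeb, Aif1, mt-Co3 and Ccr7) and 42 gained it, and the cause was not tested. With upper-quartile factors the median changed sign for the Toll-like receptor list (-0.03 to 0.02) and the KLF, ID and SMAD list (-0.02 to 0.04), and with length and GC trends removed for the integrated stress response list (0.02 to -0.02). With 3 libraries a group, genes near the floor are the least precise.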
